A study of Canis lupus familiaris with 6 samples.

Results

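Toll-like receptors are pattern recognition receptors of innate immunity, and the genes TLR1 to TLR10 of the dog were examined here in whole blood of Beagles fed casein phosphopeptide-selenium chelate (CPP-Se), a complex of selenium with phosphorylated peptides of milk casein. The members were chosen by gene name. Of the 10 names, 9 had a row among the 31512 rows of the expression table, and no row carried TLR8 as its name or in its description. Dogs aged 1.5 years received 30 g of a snack after each meal, with 0.03% CPP-Se in the CPP-Se group and without CPP-Se in the control group. Blood of 3 control and 3 CPP-Se dogs, taken on day 30, was sequenced with 1 library per dog. No pre-feeding library was part of the comparison, so a difference between the groups of 3 dogs was read as a difference between animals on day 30.

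The receptors of the cell surface bind microbial lipids and proteins. TLR2 works as a dimer with TLR1 or TLR6 on lipoproteins, TLR4 binds lipopolysaccharide together with MD-2 (LY96) and CD14, and TLR5 binds flagellin. TLR3, TLR7, TLR8 and TLR9 sit in endosomes and bind nucleic acids. Most of these receptors signal through the adaptor MYD88 to NF-κB and AP-1, and TLR3 and TLR4 also use TICAM1 (TRIF) to reach the interferon regulatory factors. In blood, monocytes and neutrophils are rich in TLR2 and TLR4, while TLR7 and TLR9 are typical of B cells and plasmacytoid dendritic cells.

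Between 6598173 and 8067034 reads per library fell on genes. Hemoglobin genes, present as 8 rows, took 48.7% to 55.9% of these reads in 5 libraries and 36.6% in CPP-Se dog 2, which stood apart. FPKM are fragments scaled to gene length and to a library size, which in the deposited values was not the number of reads on genes. For this dog it was 1.65 times those reads, against 0.882 to 1.05 times in the other dogs. Median-of-ratios scaling factors of the deposited FPKM were 0.984 to 1.01, so by that measure the libraries were already close in scale. Some of the values below are also given without CPP-Se dog 2 or with another scaling of the libraries. Markers of neutrophils (CSF3R), monocytes (CD68), B cells (CD79A), T cells (CD3E) and red cells (ALAS2) all had reads.

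In blood of the control dogs, TLR2 was the receptor gene with the highest FPKM, ahead of TLR4, TLR1 and TLR6. In the CPP-Se group, TLR4 and TLR2 were lower than in every control dog, TLR1 was lower by a smaller margin, and the endosomal receptors TLR9 and TLR7 were higher than in every control dog. None of these genes passed the threshold for a differentially expressed gene (DEG), which was an adjusted p under 0.05 in limma with a fold change of at least 1.5. The test covered genes whose FPKM averaged 1 or more across all 6 dogs, and 5 receptor genes met this filter (TLR2, TLR4, TLR1, TLR6 and TLR9), while TLR5, TLR7, TLR10 and TLR3 did not.

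Over all 9847 genes tested, 3 were DEGs, a share of 0.0305%, and all 3 were lower in the CPP-Se group. They were OVGP1, a ribosomal protein L19 pseudogene and a small nucleolar RNA gene, named here after their values were seen, and none belongs to the receptor pathway. Of the 5 receptor genes tested, 4 averaged 1 FPKM or more in both groups, and 3 of these (TLR2, TLR4 and TLR1) were lower in the CPP-Se group at an unadjusted p under 0.05. Among all genes tested, 9.1% were lower and 6.87% higher at that unadjusted threshold. The groups did not overlap for the same 3 genes, against 12.6% of all genes below and 10.4% above. TLR9 passed the filter only through its level in the CPP-Se dogs, so it is left out of these counts and its values are given as a description. Without CPP-Se dog 2, TLR2 and TLR4 had an unadjusted p under 0.05 and TLR1 did not, as was also the case without control dog 1, control dog 3 or CPP-Se dog 1.

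**Figure D1:**
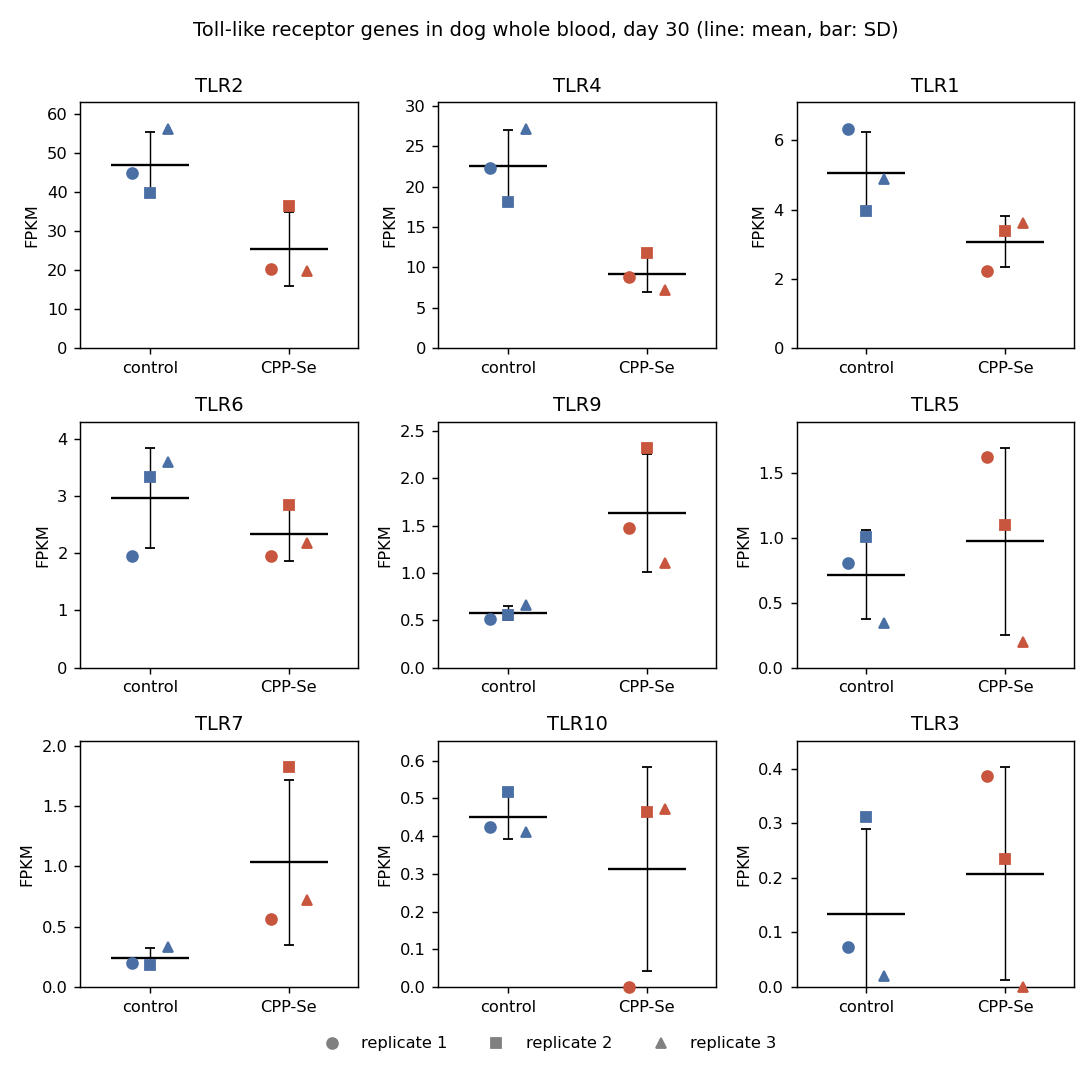
FPKM of the 9 receptor genes (y axis, linear, starting at 0, own scale per gene) in 3 control dogs (blue) and 3 CPP-Se dogs (red); symbols mark the dog number, which does not pair dogs, the horizontal line is the mean and the bar 1 SD. TLR2, TLR4 and TLR1 lie lower in all CPP-Se dogs than in any control dog, TLR9 and TLR7 lie higher, and the groups overlap for the other 4 genes.

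TLR2 (ENSCAFG00000008351) is located on chromosome 15, 51454695 to 51465241, plus strand, in the dog genome of Ensembl release 100, to which all positions here refer. It had 44.9, 39.9 and 56.2 FPKM in control dogs 1, 2 and 3, and 20.2, 36.5 and 19.8 FPKM in CPP-Se dogs 1, 2 and 3. All CPP-Se dogs were below all control dogs, with CPP-Se dog 2 close to the lowest control dog and the other two near each other. The group means were 47.0 ± 8.37 FPKM and 25.5 ± 9.51 FPKM (SD, n = 3 each). On the log2(FPKM + 1) scale the difference was -0.90 (SE 0.27), with an adjusted p of 0.199 by limma with Benjamini-Hochberg adjustment. Behind these values stood 292 to 1172 reads per dog, so counting error was small beside the spread between dogs. Without CPP-Se dog 2 the difference was -1.18, with an adjusted p of 0.128 by the same limma test.

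TLR4 (ENSCAFG00000003518; chromosome 11, 71356390 to 71367165, plus strand) encodes the lipopolysaccharide receptor. Control dogs 1, 2 and 3 had 22.3, 18.1 and 27.2 FPKM, and CPP-Se dogs 1, 2 and 3 had 8.79, 11.7 and 7.19 FPKM. The highest CPP-Se dog, again dog 2, was well below the lowest control dog. The means were 22.5 ± 4.51 and 9.24 ± 2.31 FPKM (SD, n = 3 each), so that the control mean was 2.44 times the CPP-Se mean. The difference was -1.21 on the log2(FPKM + 1) scale (SE 0.23), and its adjusted p was 0.138 by limma with Benjamini-Hochberg adjustment. By unadjusted p (0.000958) it ranked 55th of the 9847 genes in the limma fit. Of 3 models of the recovered reads, plain limma-voom gave -1.28 with an adjusted p of 0.0904 and did not call TLR4. Limma-voom with sample quality weights, in which 1.58% of all genes were DEGs, gave -1.27 with an adjusted p of 0.0407. The negative binomial model, in which 3.26% were DEGs, gave -1.28 with an adjusted p of 0.000981. TLR4 thus passed the threshold in 2 of these 3 models and not in limma on log2 FPKM.

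TLR1 (ENSCAFG00000024010; chromosome 3, 73539715 to 73544624, plus strand) encodes a partner of TLR2. Its values were 6.34, 3.97 and 4.88 FPKM in the control dogs, against 2.23, 3.40 and 3.60 FPKM in CPP-Se dogs, in the order of dogs 1 to 3. The groups did not overlap, but CPP-Se dog 3 came close to control dog 2. The means were 5.06 ± 1.20 and 3.08 ± 0.740 FPKM (SD, n = 3 each), a log2 difference of -0.57 (SE 0.23) with an adjusted p of 0.289 by limma with Benjamini-Hochberg adjustment. This value rested on 35 to 111 reads per dog.

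TLR6 (ENSCAFG00000016172; chromosome 3, 73520706 to 73523099, plus strand) encodes the other partner of TLR2. It had 1.96, 3.34 and 3.59 FPKM in the control dogs, against 1.96, 2.85 and 2.18 FPKM in CPP-Se dogs. The groups overlapped, since control dog 1 was level with the lowest CPP-Se dog. The difference was -0.23 on the log2(FPKM + 1) scale (95% interval -0.79 to 0.33, adjusted p = 0.680 by limma with Benjamini-Hochberg adjustment), an interval that includes both no difference and the size seen for TLR1.

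TLR6, TLR1 and TLR10 lie side by side on chromosome 3 in the same orientation, with 16615 bases between TLR6 and TLR1 and 23696 bases between TLR1 and TLR10. The 3 genes are related in sequence, and reads that fit more than 1 of them could have been assigned to either or dropped, so their separate values are less certain than those of TLR2 and TLR4. TLR10 (ENSCAFG00000016175; 73568321 to 73570744) was close to the floor of the assay, with 0.423, 0.517 and 0.411 FPKM in the control dogs, against 0, 0.464 and 0.472 FPKM in CPP-Se dogs. The value of 0 in CPP-Se dog 1 allows a level of up to 0.193 FPKM (3 reads), and the groups overlapped.

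TLR5 (ENSCAFG00000011368; chromosome 38, 23702033 to 23705314, plus strand), the flagellin receptor, varied more within the groups than between them. It had 0.803, 1.00 and 0.341 FPKM in the control dogs, against 1.62, 1.10 and 0.199 FPKM in CPP-Se dogs, the last from 4 reads. The lowest and the highest value both belonged to the CPP-Se group. With the filter lowered to a mean of 0.1 FPKM, limma with Benjamini-Hochberg adjustment gave an adjusted p of 0.880.

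Among the endosomal receptors, TLR9 (ENSCAFG00000023201; chromosome 20, 37542340 to 37547114, plus strand), which binds DNA with unmethylated CpG motifs, was the only one tested. It had 0.518, 0.554 and 0.659 FPKM in the control dogs, against 1.47, 2.32 and 1.11 FPKM in CPP-Se dogs, from 12, 12 and 18 reads and 32, 105 and 23 reads. All CPP-Se dogs were above all control dogs, and the control dogs lay close together. The means were 0.577 ± 0.0736 and 1.63 ± 0.622 FPKM (SD, n = 3 each), a ratio of 2.83. On the log2(FPKM + 1) scale, which understates the change of low genes, the difference was 0.71 (SE 0.27), with an adjusted p of 0.270 by limma with Benjamini-Hochberg adjustment. The negative binomial model of the reads gave 1.52 with an adjusted p of 0.0394, limma-voom 1.51 with 0.169 and limma-voom with sample quality weights 1.55 with 0.0692. TLR9 met the filter only through the CPP-Se dogs, since its mean in the control group was below 1 FPKM, so these values describe the gene and are not read as a call. Without CPP-Se dog 2, which had the most reads, limma gave a difference of 0.53 and the ratio of means was 2.23.

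TLR9 shares 2929 of the 4775 bases of its span with POC1A, a centriole gene on the same strand whose row is described in the file as Toll-like receptor 9. Reads in the shared stretch could belong to either gene. The mean FPKM of POC1A was 2.14 ± 0.887 among control dogs and 2.58 ± 0.572 among CPP-Se dogs (SD, n = 3 each). Its log2 difference was 0.21 (adjusted p = 0.736 by limma with Benjamini-Hochberg adjustment), and its groups overlapped, unlike those of TLR9.

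TLR7 (ENSCAFG00000011698; chromosome X, 9314815 to 9359603, plus strand) binds single-stranded RNA. It had 0.196, 0.180 and 0.333 FPKM in the control dogs, against 0.568, 1.82 and 0.719 FPKM in CPP-Se dogs, from 6 to 14 reads and 19 to 127 reads. Every CPP-Se dog was above every control dog, and the mean of the CPP-Se group was 4.38 times that of the control group, with CPP-Se dog 2 far above the other dogs. Without that dog the ratio of means was 2.72. Its mean over the 6 dogs was under 1 FPKM, so it was not tested with the main filter. With the filter at 0.1 FPKM its log2 difference was 0.67 (SE 0.26) and its adjusted p was 0.347 by limma with Benjamini-Hochberg adjustment. The whole TLR7 span lies within that of PRPS2, a nucleotide synthesis gene on the same strand, whose log2 difference was 0.06. In RefSeq's annotation of another dog assembly (UU_Cfam_GSD_1.0), TLR8 is the gene next to TLR7 on chromosome X; which row, if any, took the TLR8 reads here was not tested.

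TLR3 (ENSCAFG00000007406; chromosome 16, 44550846 to 44653247, minus strand), the receptor for viral RNA duplexes, was the lowest of the 9 genes. It had 0.0726, 0.310 and 0.0205 FPKM in the control dogs, against 0.387, 0.235 and 0 FPKM in CPP-Se dogs, from at most 19 reads, and the groups overlapped. With the filter at 0.1 FPKM the log2 difference of TLR3 was 0.09 (SE 0.20), with an adjusted p of 0.886 by limma with Benjamini-Hochberg adjustment.

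The order of mean FPKM over the 6 dogs was TLR2, TLR4, TLR1, TLR6, TLR9, TLR5, TLR7, TLR10 and TLR3. From TLR2 down to TLR9 each gene was above the next in 6 of 6 dogs, but over all dogs only TLR4 and TLR1 had ranges that did not overlap. Below that the order was not stable, as TLR9 exceeded TLR5 in 3 dogs, TLR5 exceeded TLR7 in 4, TLR7 exceeded TLR10 in 3 and TLR10 exceeded TLR3 in 5.

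Summed over the 9 genes, the receptors had 77.5, 67.9 and 93.6 FPKM in the control dogs, against 37.3, 60.4 and 35.3 FPKM in CPP-Se dogs. TLR2 held 58.0%, 58.7% and 60.1% of this sum in the control dogs, against 54.3%, 60.4% and 56.1% in CPP-Se dogs, ranges that overlapped. The share of TLR4 was 28.7%, 26.7% and 29.0% in the control dogs, against 23.6%, 19.4% and 20.4% in CPP-Se dogs, so TLR4 was lower in share as well as in level. TLR9 went the other way, with 0.668%, 0.816% and 0.704% against 3.95%, 3.84% and 3.14%. The share of TLR7 was 0.253%, 0.265% and 0.356% against 1.52%, 3.02% and 2.04%. Shares within a library do not depend on how libraries are scaled, and CPP-Se dog 2 lay with the other CPP-Se dogs in the shares of TLR4, TLR9 and TLR7.

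Grouped by compartment, the sums were made up mainly of TLR2 and TLR4 on the surface and of TLR9 and TLR7 in endosomes, so they restate these 4 genes, and the groups overlapped for TLR6, TLR5, TLR10 and TLR3. The 6 surface receptors summed to 76.7, 66.9 and 92.6 FPKM in the control dogs, against 34.8, 56.0 and 33.5 FPKM in CPP-Se dogs, while the 3 endosomal receptors with a row summed to 0.786, 1.04 and 1.01 FPKM and 2.43, 4.38 and 1.83 FPKM. Surface FPKM was 97.6, 64.0 and 91.4 times endosomal FPKM in the control dogs, and 14.4, 12.8 and 18.3 times in the CPP-Se dogs. The log2 of this ratio was 6.37 ± 0.33 in the control group and 3.91 ± 0.26 in the CPP-Se group (SD, n = 3 each), a difference of -2.47. The exact permutation test over dogs (two-sided) gave p = 0.1, the smallest value that 3 dogs against 3 allow. The difference was -2.36 without CPP-Se dog 2. Taken as the difference between the mean log2(FPKM + 1) of the surface and of the endosomal genes, which weights each gene equally, it was -0.98, again without overlap.

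The ratio of TLR4 to TLR2 FPKM, chosen after the values were seen, was 0.496, 0.455 and 0.483 in the control dogs, against 0.435, 0.322 and 0.363 in CPP-Se dogs. All CPP-Se dogs were below all control dogs, and the difference in log2 was -0.37, given as a description.

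**Figure D2:**
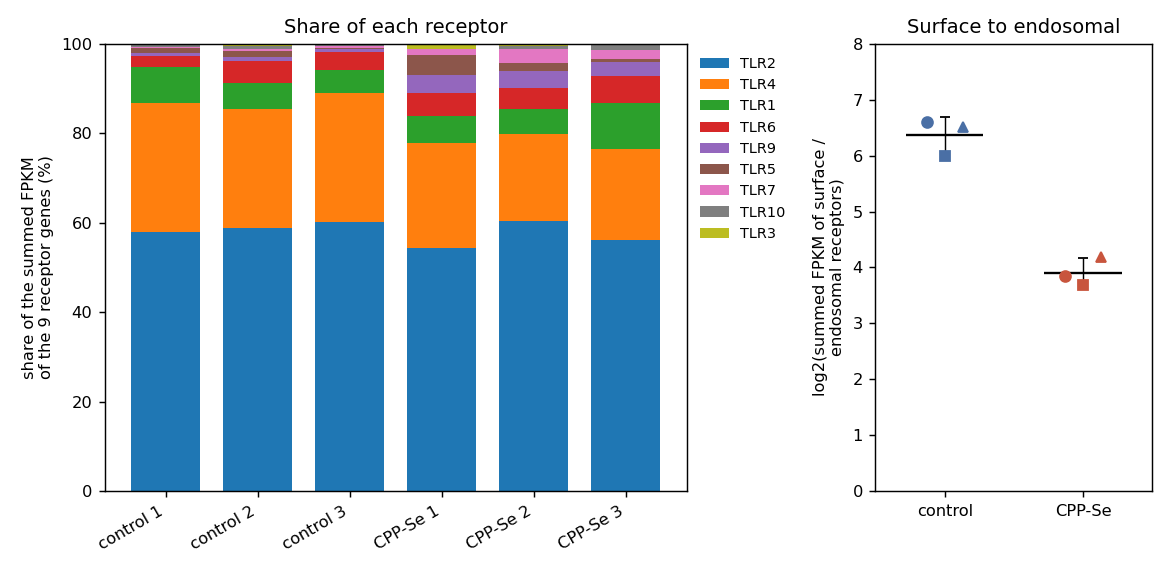
Left, the share of each receptor gene in the summed FPKM of the 9 genes (y axis, percent) in each dog; right, log2 of surface over endosomal summed FPKM per dog (blue control, red CPP-Se; circle, square and triangle for dogs 1, 2 and 3, line mean, bar 1 SD, n = 3). TLR2 and TLR4 make up most of every bar, the endosomal genes take a larger share in the CPP-Se dogs, and the ratio is lower in all 3 CPP-Se dogs.

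The scale put on CPP-Se dog 2 mattered for levels. When all libraries were set to the same sum of FPKM, TLR2 in this dog was 55.0 FPKM and TLR4 17.7 FPKM, within the ranges of the control dogs (35.3 to 56.1 and 16.1 to 27.1 FPKM), and TLR1 overlapped too. The log2 differences stayed negative (TLR2 -0.74, TLR4 -1.05, TLR1 -0.44), while the median of all genes moved by 0.13, and only TLR4 kept an unadjusted p under 0.05. With reads outside the hemoglobin genes as the library size, the groups did not overlap for TLR4 and TLR9 but did for TLR2 and TLR1. TLR9 was above all control dogs under each of the 4 other scalings tried. Fewer of all genes were lower with hemoglobin-free or common-sum scaling too, with groups below without overlap for 5.85% of genes with hemoglobin-free reads and 3.15% with a common sum, against 12.6% as deposited.

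**Figure D3:**
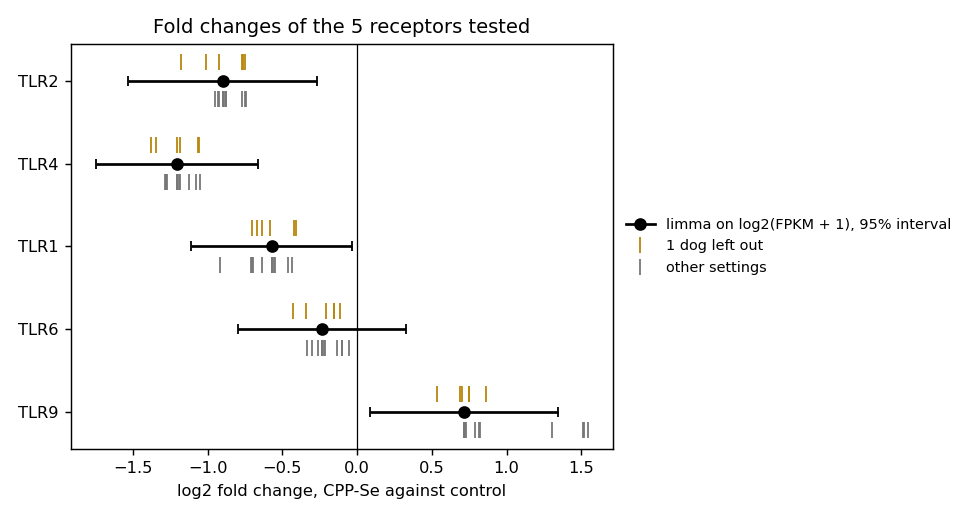
Log2 difference between the CPP-Se and control groups (x axis) for the 5 receptor genes tested. Black points and bars are limma estimates on log2(FPKM + 1) with 95% intervals, yellow ticks leave out 1 dog each, and grey ticks are the other scalings, filters and models; for TLR4 the ticks run from -1.38 to -1.05, for TLR9 from 0.53 to 1.55, and no tick crosses 0 for any gene.

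Genes on the list of co-receptors and ligand-binding partners lay mostly below their control levels, as TLR4 and TLR2 did. Of the partners with which TLR4 binds lipopolysaccharide, CD14 lay below its control level, and the groups overlapped for LY96. Of 7 genes on that list, 5 were tested, 4 were lower at an unadjusted p under 0.05 and none was higher (9.1% and 6.87% of all genes), and the median log2 difference was -0.91 against -0.00 over all genes tested. The count of 4 became 2 with reads outside the hemoglobin genes as the library size, where 4.57% of all genes were lower, and 1 with a common sum of FPKM, where 2.68% were. It was 3 to 4 with 1 dog left out. CD14, the shared co-receptor of TLR4 and TLR2, whose row was identified by its description, had 66.5, 68.1 and 80.3 FPKM in the control dogs, against 34.5, 29.8 and 22.5 FPKM in CPP-Se dogs. Its difference of -1.29 (SE 0.21, adjusted p = 0.138 by limma with Benjamini-Hochberg adjustment) was close to that of TLR4. CD180 and LY86 (MD-1), which form a receptor complex on B cells and myeloid cells, differed by -0.63 and -0.61, and BPI, a neutrophil protein that binds lipopolysaccharide, by -0.93. LY96 (MD-2), which TLR4 needs to bind lipopolysaccharide, had 15.5, 9.41 and 7.73 FPKM against 0.970, 9.94 and 9.47 FPKM. Its low mean in the CPP-Se group came from dog 1 alone, and the groups overlapped. CD36 was listed at 0 in all 6 dogs, and LBP, a liver product, was under the filter.

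Genes that fold the receptors and carry or process them in endosomes lay below or around their control levels. Of 12 genes listed, 10 were tested, and 3 were lower and 0 higher at the unadjusted threshold in limma. The shares over all genes were 9.1% and 6.87%, and the list median was -0.16. The count of 3 became 2 without CPP-Se dog 2, 0 without control dog 1, 1 without control dog 3 or CPP-Se dog 1, 1 with hemoglobin-free reads and 0 with a common sum of FPKM. UNC93B1, the chaperone that brings TLR3, TLR7 and TLR9 to endosomes, was at 25.9 ± 2.40 and 30.1 ± 8.12 FPKM (SD, n = 3 each). Its difference of 0.18 was the highest of the list, and its groups overlapped. The 3 lower genes were the endosomal proteases CTSS (-0.81) and CTSB (-0.64) and the ubiquitin ligase RNF13 (-0.55).

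All 5 adaptors were tested, and 3 were lower and 0 higher at the unadjusted threshold, beside 9.1% and 6.87% of all genes. MYD88 had 122 ± 10.5 FPKM among control dogs and 86.4 ± 15.3 FPKM among CPP-Se dogs (SD, n = 3 each), which did not overlap, a log2 difference of -0.50 (SE 0.20, adjusted p = 0.285 by limma with Benjamini-Hochberg adjustment). TIRAP, which links TLR2 and TLR4 to MYD88, differed by -0.60, and TICAM2, which links TLR4 to TICAM1, by -0.86. TICAM1 itself differed by 0.19 with overlapping groups. TICAM2 and TIRAP were thus at the low end of the list, and their adjusted p-values were 0.250 or more in limma. The 3 adaptors lower at the unadjusted threshold became 0 without control dog 2 or CPP-Se dog 3, 1 without control dog 3 or CPP-Se dog 1, 2 without control dog 1, 1 with hemoglobin-free reads or upper-quartile scaling and 0 with a common sum.

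Among 17 kinases and ubiquitin ligases tested of 18, 4 were lower and 0 higher at the unadjusted threshold in limma. The shares over all genes were 9.1% and 6.87%, and the list median was -0.05. The lower genes were PELI1 (-0.86), a ligase that modifies IRAK proteins, IRAK2 (-0.78), MAPK14 (-0.70), which encodes the kinase p38α, and IKBKB (-0.47). IRAK2 met the filter only through the control dogs, and without it 3 of 16 were lower. IRAK4, the first kinase recruited to MYD88, was at 5.83 ± 0.475 and 6.29 ± 1.04 FPKM (SD, n = 3 each), a difference of 0.09. The count of 4 became 2 without control dog 1, control dog 2 or CPP-Se dog 1, 2 with hemoglobin-free reads and 0 with a common sum. TAB1 had the highest difference of this list, 0.47, with overlapping groups.

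Of 12 transcription factors, all tested, FOS and JUN, which together form AP-1, were lower at the unadjusted threshold (-1.41 and -0.79), and none was higher. These 2 of 12, or 16.7%, stand beside 9.1% of all genes lower and 6.87% higher. The NF-κB and IRF genes of the list did not pass that threshold, and IRF3 had the highest difference (0.45). With a common sum of FPKM 1 of the 12 was lower (2.68% of all genes), and without CPP-Se dog 2 the count was 3 (8.88%). Among 11 inhibitors tested of 13, 3 were lower and 1 higher, and with a common sum 1 was lower and 1 higher. The higher gene was lost without control dog 1, control dog 2 or CPP-Se dog 1, and 2 were lower without control dog 1, control dog 3 or CPP-Se dog 3. DUSP1, a phosphatase that switches off p38, was at 89.2 ± 19.6 and 34.2 ± 1.77 FPKM (SD, n = 3 each), a difference of -1.34. NFKBIA, the inhibitor of NF-κB that NF-κB itself induces, differed by -0.87 and TRAFD1 by -0.50. IRAK3 differed by -0.50 with overlapping groups. SOCS1, which restrains cytokine signalling, differed by 1.33, with 27.1 FPKM in CPP-Se dog 1 and 5.68 and 6.60 FPKM in the other CPP-Se dogs against 1.85 to 5.65 FPKM in the control dogs.

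Only 4 of the 14 cytokines and chemokines that the receptors can induce passed the filter, and IL6, IL12B and IFNB1 were listed at 0 in all dogs. CXCL8, the neutrophil attractant, was lower (-1.35) at the unadjusted threshold, while CCL4 and CCL5, chemokines that T and NK cells also make, were higher (1.85 and 1.95). CCL4 had 0.854, 1.03 and 1.36 FPKM in the control dogs, against 9.10, 3.60 and 7.97 FPKM in CPP-Se dogs, with an adjusted p of 0.138 by limma with Benjamini-Hochberg adjustment. The groups overlapped for CCL5, which had 8.90 FPKM in control dog 3 and 7.35 FPKM in CPP-Se dog 2. The 2 higher genes of this list became 1 without control dog 1, control dog 2, CPP-Se dog 1 or CPP-Se dog 3.

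Over the 64 pathway genes tested, 20 were lower and 3 higher at the unadjusted threshold, or 31.2% and 4.69%, beside the shares of 9.1% and 6.87% over all genes given above. SARM1 and IRAK2 met the filter only through the control dogs, and without them 19 of 62 were lower and 3 higher. The median log2 difference of the 64 was -0.28, and none was a DEG in limma, while the negative binomial model called 8 and limma-voom with sample quality weights 4. In both directions together, the 23 genes at the unadjusted threshold became 14 without control dog 1 or control dog 2 and 15 without CPP-Se dog 1. Over all genes, 1572 at that threshold became 971, 1279 and 1280 in the same fits. Without CPP-Se dog 2 the counts of pathway genes were 19 lower and 3 higher. With all libraries at the same sum of FPKM they were 4 lower and 3 higher, and the counts over all genes were 264 lower and 656 higher.

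Whole blood mixes cell types, and in such samples fewer cells of a type and less RNA per cell cannot be told apart. Most monocyte markers were lower in the CPP-Se dogs, as TLR2 and TLR4 were, and CD14 stands on this list as well as among the co-receptors. Of 12 markers 10 were tested, 8 were lower at the unadjusted threshold and 0 higher in limma, with a median log2 difference of -0.85, and no marker was at 0 in all dogs. CD163 met the filter only through the control dogs, and without it 7 of 9 were lower. The count of 8 stood beside 9.1% of all genes lower and 6.87% higher. It became 6 with hemoglobin-free reads (4.57% of all genes lower) and 3 with a common sum of FPKM (2.68%). With 1 dog left out it was 6 to 8. Their summed FPKM ranged from 436.7 to 553.3 in the control dogs and from 266.9 to 286.4 in the CPP-Se dogs. FCGR1A differed by -0.82, CSF1R by -0.97 and CD68, the highest of the list, by -0.50 with overlapping groups. Neutrophil markers showed 5 lower and 0 higher of 10 tested, beside the same shares of all genes, with a median of -0.71. The count of 5 became 3 with hemoglobin-free reads, 3 beside 1 higher with a common sum, 3 without control dog 1 or 2, and 5 beside 1 higher without CPP-Se dog 2. MMP9, singled out after its values were seen, differed by 1.35 with overlapping groups, at 68.3 to 96.3 FPKM in the control dogs and 729, 23.7 and 540.0 FPKM in CPP-Se dogs 1, 2 and 3. Their summed FPKM ranged from 2837 to 4110 in the control dogs and from 2318 to 2862 in the CPP-Se dogs, ranges that overlapped. CSF3R was lower at the unadjusted threshold (903 ± 187 against 486 ± 103 FPKM, SD, n = 3 each), while S100A9 (-0.35) and S100A8 (-0.18) overlapped between the groups.

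Each receptor gene was then set against the mean of these markers in the same library, as a difference of log2(FPKM + 1), in which scaling between libraries cancels for genes well above 1 FPKM but not for TLR9. Relative to the 10 monocyte markers, the log2 difference of TLR2 was -0.00 (p = 1), that of TLR4 was -0.31 (p = 0.3) and that of TLR1 was 0.33 (p = 0.4), by the exact permutation test over dogs. With 1 dog left out they ran from -0.22 to 0.21, from -0.48 to -0.15 and from 0.084 to 0.57. The level of TLR2 per monocyte marker thus overlapped between the groups. TLR6 was higher relative to these markers in all CPP-Se dogs, by 0.66 (exact permutation p = 0.1, adjusted p = 0.333 over 10 comparisons). The 10 comparisons include those of TLR9, which are given only as a description, and the adjusted p depends on them. As a description, TLR9 differed by 1.61. With a pseudocount of 0.1 the difference of TLR9 was 2.37 and that of TLR2 was 0.14. Relative to the 10 neutrophil markers the differences were -0.40 for TLR2, -0.71 for TLR4, -0.08 for TLR1 and 0.26 for TLR6, with exact permutation p of 0.3 or more. With 1 dog left out these ran from -0.76 to -0.13, from -0.96 to -0.43, from -0.22 to 0.12 and from -0.085 to 0.53. TLR9 differed by 1.21, given as a description. Without MMP9, whose difference had the opposite sign, the differences were -0.20, -0.51, 0.13 and 0.47 for TLR2, TLR4, TLR1 and TLR6. TLR1 thus changed direction, and the groups no longer overlapped for TLR4. MMP9 was left out after its values were seen, so these differences are a description. The part of monocyte and neutrophil numbers in the lower TLR2, TLR4 and TLR1 was not tested beyond these values.

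Of 11 B cell markers 10 were tested, and 9 of the 10 had a positive log2 difference, as TLR9 and TLR7 did. At the unadjusted threshold 4 were higher and 0 lower in limma, beside 6.87% and 9.1% of all genes. The groups overlapped for 6 of the 10, and the median of the markers was 0.63. Their summed FPKM ranged from 280.5 to 404.5 in the control dogs and from 430.7 to 470.0 in the CPP-Se dogs, and none was at 0 in all dogs. CD79A differed by 0.26, CD79B by 0.75 and CD22 by 0.89. Relative to the mean of the 10 B cell markers, a comparison chosen after the values were seen, TLR9 differed by 0.18 with overlapping groups, given as a description. The count of 4 became 2 without CPP-Se dog 2 and 1 without control dog 2. Of 10 dendritic cell markers only 3 were tested (IL3RA, CLEC10A and BATF3), 1 of them lower at the unadjusted threshold. The count was 0 with hemoglobin-free or common-sum scaling and without control dog 1, control dog 2 or CPP-Se dog 3, and without CPP-Se dog 2 it turned to 1 higher and 0 lower. Their summed FPKM of 4.46 to 7.70 in the control dogs and 3.93 to 12.5 in the CPP-Se dogs overlapped. The part of B cell and dendritic cell numbers in the higher TLR9 and TLR7 was not tested.

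For the remaining lists, the shares over all genes at the unadjusted threshold were 6.87% higher and 9.1% lower. They were 9.49% and 4.57% with hemoglobin-free reads, and 6.66% and 2.68% with a common sum. T cell markers had 6 higher and 1 lower (CD4) of 12 tested, with LCK at 0.88 and CD3E at 0.89. The lower count became 0 without control dog 1, control dog 3, CPP-Se dog 1 or CPP-Se dog 3, and 0 beside 7 or 8 higher with upper-quartile, hemoglobin-free or common-sum scaling. Of the 12 T cell markers, 11 had a positive log2 difference, and CD4 was the 1 with a negative difference. Their summed FPKM, in which CD4 was the highest gene, was lower in the CPP-Se dogs (919.7 to 1030) than in the control dogs (1055 to 1368). Markers of NK and cytotoxic cells had 5 higher of 9, with IL2RB at 0.80, TBX21 at 1.55 and NCR3 at 1.17, 6 higher without CPP-Se dog 2 or with upper-quartile scaling, 7 higher with hemoglobin-free or common-sum scaling, and summed FPKM of 37.7 to 65.9 in the control dogs and 83.8 to 132.7 in the CPP-Se dogs. Red cell markers had 3 higher and 1 lower (GYPC) of 9, with ALAS2 at -0.07 and AHSP at 0.92, and the 3 became 1 without control dog 1, control dog 3 or CPP-Se dog 3 and 5 without control dog 2. GYPC was no longer lower at that threshold without control dog 1 or with a common sum. None of 5 platelet markers passed the unadjusted threshold in limma; PPBP differed by 0.18, ITGA2B by -0.47 and TUBB1 by 0.43. Without CPP-Se dog 2, 1 platelet marker was higher and the list median turned from -0.16 to 0.20.

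**Figure D4:**
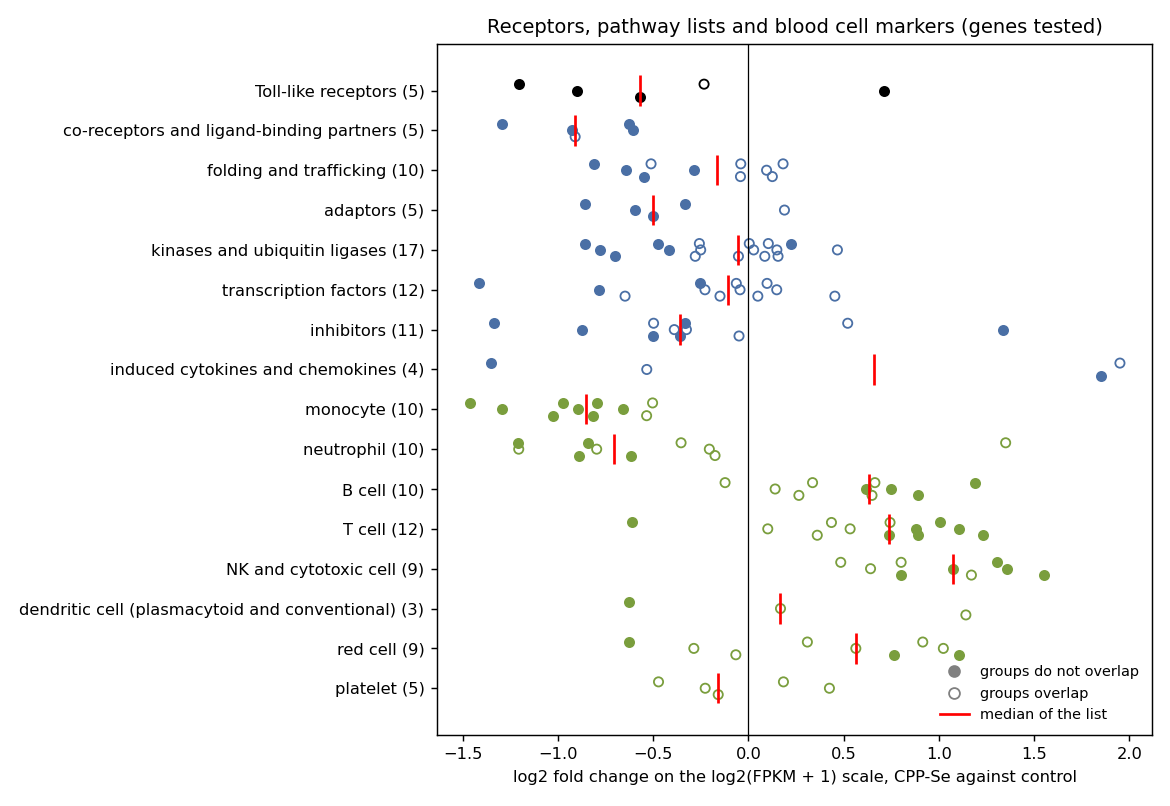
Log2 difference between the CPP-Se and control groups on the log2(FPKM + 1) scale (x axis) for each gene tested of the receptors (black), the pathway lists (blue) and the blood cell marker lists (green), with the number tested in brackets. Filled points are genes whose groups do not overlap and red lines are list medians; the co-receptors (-0.91), monocyte (-0.85) and neutrophil (-0.71) markers lie to the left with TLR2, TLR4 and TLR1, and the B cell (0.63), T cell (0.74) and NK and cytotoxic cell (1.07) markers lie to the right with TLR9.

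The genes whose pattern over the 6 dogs was most like that of a receptor were found by the root mean square difference in log2(FPKM + 1) after each gene's mean was subtracted. For TLR2 these were ITGAM (0.087), whose row is described as integrin alpha-X, a subunit of a leukocyte integrin, then COA6 (0.096), a cytochrome c oxidase assembly factor, and ECE1 (0.11), an endothelin-converting enzyme. For TLR4 they were DHX34 (0.078), an RNA helicase, a gene without a name (ENSCAFG00000029897, 0.092) and RAB31 (0.12), a GTPase of vesicle traffic. For TLR1 they were CCPG1 (0.080), CREBRF (0.081) and SOS2 (0.086). TLR2 and TLR4 differed from each other by 0.20, which put TLR2 at place 26 among the genes most like TLR4 and TLR4 at place 77 among those most like TLR2. TLR1 was farther from both, at places 740 and 756. The 6 dogs include both groups, so these distances reflect the difference between the groups as well as the spread between dogs.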

How the data were processed

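Whole blood RNA of 6 dogs (3 per group, day 30) was sequenced as poly-A libraries. Per the labels and the methods of the study, the authors processed reads with CASAVA 2.19, fastp 0.19.7, HISAT2 2.0.5 and featureCounts 1.5.0-p3 on the dog genome of Ensembl release 100, and deposited FPKM per gene with 1 column per dog. Strand setting and handling of shared reads are not given in the sources used here.

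FPKM times gene length gave whole reads for 100% of values above 0 (within 0.01 reads), and these reads were used with the library sizes the FPKM imply. Median-of-ratios factors of the deposited FPKM were 0.984 to 1.01. The study's count test was replaced by limma 3.58.1 (R 4.3.3; lmFit, eBayes with trend, two-sided) on log2(FPKM + 1) in 9847 genes averaging 1 FPKM or more, with Benjamini-Hochberg adjustment over these genes. DEGs required a fold change of 1.5 or more besides an adjusted p under 0.05. Ratios were compared by exact permutation over dogs, which cannot go below 0.1. Python 3.11.15, numpy 2.4.6, pandas 2.3.3 and scipy 1.17.1 were used.

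Alternatives were a pseudocount of 0.1, filters of 0.1 FPKM and none, 4 scalings, other limma settings, limma-voom, a negative binomial model, a replicate block and leaving out each dog. The main limma fit and the negative binomial model were checked on simulated data. Replicate numbers did not pair dogs (correlations of same-numbered deviations 0.016, -0.090 and -0.043). The table paired gene identifiers with names; CD14, IRF7, S100A9, NKG7, CR2 and LILRA4 were matched through the description of 1 unnamed row each, and CTSL and HBB were not used. Named genes were all receptors, and of each pathway list the genes at an unadjusted p under 0.05, the lowest and the highest, and 10 fixed partners; of each marker list, the 3 with the highest FPKM. Members, lists and rules were chosen with earlier results of these data known. Floors cover counting error only.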

Additional observations from a re-analysis of the deposited data

How the results depend on the processing

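The direction of all 5 receptor genes tested held in each of the 20 alternatives, with log2 differences of -1.18 to -0.74 for TLR2, -1.38 to -1.05 for TLR4, -0.92 to -0.41 for TLR1, -0.43 to -0.06 for TLR6 and 0.53 to 1.55 for TLR9, and adjusted p of 0.0599 to 0.630, 0.000981 to 0.455, 0.146 to 0.753, 0.585 to 0.961 and 0.0394 to 0.548. No receptor gene was a DEG in limma on log2 FPKM with any dog left out (0). Limma-voom with sample quality weights called 1 (TLR4), the negative binomial model 2 (TLR4, and TLR9, which is not read as a call) and plain limma-voom 0, with 1590 genes at an unadjusted p under 0.05; the cause was not tested.

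With TLR9 included, which met the filter only through the CPP-Se dogs, the count at an unadjusted p under 0.05 (4) became 1 with a common sum of FPKM (2.68% of all genes lower and 6.66% higher), 2 with the replicate block (TLR2 and TLR4; 7.57% and 6.19%) and 2 to 4 with 1 dog left out. TLR1 lost its p under 0.05 with upper-quartile scaling, with hemoglobin-free reads and without a filter as well. The count at this threshold rose to 5 with the filter at 0.1 FPKM, where TLR7 entered with an unadjusted p of 0.032 by limma. The count without overlap (4) became 2 with hemoglobin-free reads and 1 with a common sum, alternatives added after seeing the data, and was 4 to 5 with 1 dog left out. With hemoglobin-free reads it was 1 below (5.85% of all genes) and 1 above (13.9%), and with a common sum 0 below (3.15%) and 1 above (10.6%); with 1 dog left out the share of all genes below was 15.8% to 19.1% and above 13.9% to 17.3%.

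Over all genes, 3 DEGs became 0 with a pseudocount of 0.1 (1537 at an unadjusted p under 0.05 in limma), 0 without a filter on 16615 genes, 12 with a common sum, 1 with the replicate block, 1 in limma-voom, 156 with quality weights, 321 in the negative binomial model and 0 to 14 with 1 dog left out (0 without control dog 1, 2 or 3 or CPP-Se dog 3, 1 without CPP-Se dog 1, 14 without CPP-Se dog 2). Pathway genes called (0) became 1 with a common sum, 4 with quality weights, 8 in the negative binomial model and 0 to 1 with 1 dog left out. Pathway genes at the unadjusted threshold (23) became 14 with hemoglobin-free reads, 7 with a common sum, 18 with the replicate block and 14 to 22 with 1 dog left out. Over all genes, 1572 became 1384, 920, 1355 and 971 to 1642 in these fits.

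The ratio of surface to endosomal receptors differed by -2.66 to -2.35 with 1 dog left out, by -2.49 from reads and by -0.98 as a difference of mean log2(FPKM + 1). Relative to monocyte markers TLR2 reversed to 0.14 with a pseudocount of 0.1 and ran from -0.22 to 0.21 with 1 dog left out. Relative to neutrophil markers TLR1 ran from -0.22 to 0.12 and TLR6 from -0.085 to 0.53, and TLR1 reversed to 0.13 without MMP9, added after seeing the data; none of these was past its threshold. Scaling to hemoglobin-free reads or a common sum moved the median of all genes by 0.11 or 0.13. With 3 dogs per group and under 20 reads in some dogs for TLR3, TLR5, TLR7, TLR9 and TLR10, differences in these genes are loosely bounded.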
